A study of Mus musculus with 6 samples.

Results

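Heavy chain variable (V) segments are the gene pieces from which a B cell builds the antigen-binding part of its antibody heavy chain. RNA from 102 of these segments was measured in naive B cells of mouse spleen, with 3 libraries from TET2 knockout and 3 from TET2 wild-type mice. The members were all gene names starting with Ighv that had at least 10 counts summed over the 6 libraries. They were 102 of the 114 Ighv names among the 41053 gene names of the count table. Because low counts decided membership, the presence of a segment is a description and not a finding. TET2 is an enzyme that oxidizes 5-methylcytosine in DNA. Both groups were of the C57BL/6 strain, and the knockout group carried the genotype written as TET2 Knock-Out and the other TET2 Wild-Type. The libraries bear the numbers 2, 3 and 4 in each genotype. The labels give neither the deleted part of the gene nor the age and sex of the mice, and do not say that libraries of 1 group came from separate mice. The p-values therefore describe the scatter among these 6 libraries, part of which may be technical.

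V segments lie in a long array on mouse chromosome 12, upstream of the diversity (D) and joining (J) segments and the constant genes. In a developing B cell, the RAG recombinase joins a D to a J segment and then a V segment to that DJ unit, and the chosen V promoter drives the heavy chain messenger. Each mature B cell therefore transcribes mainly the V segment it rearranged, and the V transcripts of a whole population report which segments its cells use. V segments are grouped into families by sequence likeness, and the number after Ighv is the family. In the mouse, families near the D segments, such as family 5, are used early in life, whereas the distal part of the array holds most of the large family 1.

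The sequences below are the mouse reference and come from the GENCODE vM21 transcripts (GRCm38), in which 99 of the 102 members had a coding sequence. All members lie on the minus strand, and sequences read 5′ to 3′. The ends of the 6 most used segments are shown because the last bases of V open the third hypervariable loop, where V meets D. Capitals mark the 9 letters TGTGCAAGA, searched on the coding strand within the last 15 bases, and each line gives the last 60 bases of the coding sequence.
Ighv1-26: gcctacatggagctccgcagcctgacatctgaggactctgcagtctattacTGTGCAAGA
Ighv3-6: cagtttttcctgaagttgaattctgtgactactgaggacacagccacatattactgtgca
Ighv1-9: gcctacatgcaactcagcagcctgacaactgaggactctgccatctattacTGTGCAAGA
Ighv9-3: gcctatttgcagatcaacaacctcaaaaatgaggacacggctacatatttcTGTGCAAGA
Ighv5-17: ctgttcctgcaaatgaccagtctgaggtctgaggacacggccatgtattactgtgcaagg
Ighv8-8: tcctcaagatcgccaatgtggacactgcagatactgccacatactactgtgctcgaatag
This ending was carried by 54 of 99 members (54.5%), and by 59 of 115 Ighv coding sequences in the annotation (51.3%). Segments that carried it took 58.5% ± 0.591 of Ighv counts in knockout and 59.8% ± 0.441 in wild type (mean ± SD, n = 3 each, exact two-sided permutation p = 0.1). Where only the last 9 bases were searched, 43 members carried it, and their shares overlapped between the genotypes (exact p = 0.5). Some annotated coding sequences, those of Ighv3-6, Ighv1-18, Ighv14-4 and Ighv8-12 among them, stop before such an ending could be complete. These segments were counted as not carrying it. Shares of Ighv3-6, Ighv1-18 and Ighv14-4 were higher in every knockout library, and those of Ighv8-12 overlapped. The effect of these early ends on the comparison was not tested.

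Ighv6-3 and Ighv6-6 are shown because both took a larger share of Ighv counts in knockout. Their coding sequences were 90.8% identical, and capitals mark the bases of each that the other does not match. These lines give the last 300 bases, and coordinates (GRCm38) are those of the whole segment in the count table.
Ighv6-3 (chr12:114391712-114392169): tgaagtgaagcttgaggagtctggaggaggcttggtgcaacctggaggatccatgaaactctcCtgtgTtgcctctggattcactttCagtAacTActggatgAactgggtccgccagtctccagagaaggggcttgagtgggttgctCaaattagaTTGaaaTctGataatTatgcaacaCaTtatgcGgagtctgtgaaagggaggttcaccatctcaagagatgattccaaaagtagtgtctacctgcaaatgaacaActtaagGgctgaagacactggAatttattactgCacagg
Ighv6-6 (chr12:114434788-114435244): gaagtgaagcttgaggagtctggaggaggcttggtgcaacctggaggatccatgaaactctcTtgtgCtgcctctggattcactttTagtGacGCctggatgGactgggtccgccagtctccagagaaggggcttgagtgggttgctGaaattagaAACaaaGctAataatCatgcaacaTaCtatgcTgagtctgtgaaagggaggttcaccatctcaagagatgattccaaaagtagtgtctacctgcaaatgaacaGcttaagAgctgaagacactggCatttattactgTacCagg
Ighv5-4 and Ighv5-6, which lie close to the D segments, are shown because both took a smaller share in knockout. They were 95.5% identical, and the last 300 bases are given with differing bases in capitals.
Ighv5-4 (chr12:113597446-113597905): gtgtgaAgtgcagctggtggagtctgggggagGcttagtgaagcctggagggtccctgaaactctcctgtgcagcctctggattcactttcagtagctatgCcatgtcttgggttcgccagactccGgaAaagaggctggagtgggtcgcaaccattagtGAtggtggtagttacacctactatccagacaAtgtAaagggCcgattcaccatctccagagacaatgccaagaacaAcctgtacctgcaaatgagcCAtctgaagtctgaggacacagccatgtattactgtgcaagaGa
Ighv5-6 (chr12:113625506-113625956): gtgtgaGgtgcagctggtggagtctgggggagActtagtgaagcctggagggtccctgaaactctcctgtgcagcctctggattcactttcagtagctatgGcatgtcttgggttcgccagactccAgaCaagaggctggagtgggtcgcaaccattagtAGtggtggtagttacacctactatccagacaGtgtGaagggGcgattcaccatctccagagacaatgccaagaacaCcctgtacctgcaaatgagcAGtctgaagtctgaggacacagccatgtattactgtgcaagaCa
Ighv1-72, the segment of the classical response to nitrophenyl haptens in this strain, is shown with Ighv1-62-3 because likeness limits the count. Their coding sequences differed at 3 positions, all within the last 300 bases and again in capitals.
Ighv1-72 (chr12:115757984-115758416): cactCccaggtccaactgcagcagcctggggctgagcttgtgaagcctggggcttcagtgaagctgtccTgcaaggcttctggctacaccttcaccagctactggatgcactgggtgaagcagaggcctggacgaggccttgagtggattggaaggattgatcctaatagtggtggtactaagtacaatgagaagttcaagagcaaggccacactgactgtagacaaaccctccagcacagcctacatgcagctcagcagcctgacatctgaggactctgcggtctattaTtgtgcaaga
Ighv1-62-3 (chr12:115460999-115461431): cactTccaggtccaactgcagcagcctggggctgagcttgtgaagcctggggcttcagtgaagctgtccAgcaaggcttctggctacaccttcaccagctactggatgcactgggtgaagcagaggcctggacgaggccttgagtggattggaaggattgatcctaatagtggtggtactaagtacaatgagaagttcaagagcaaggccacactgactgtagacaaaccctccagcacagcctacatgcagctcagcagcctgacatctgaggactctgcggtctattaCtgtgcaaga
Of the words of 50 bases in Ighv1-72, 8.61% occurred in no other Ighv transcript, so reads from these segments may not be told apart and the count of Ighv1-72 is uncertain. Among all members, 54 had a copy at least 95% identical and 10 had one at least 98% identical. For 13 members, under 50% of such words were unique. No member shared exon bases with another gene.

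The libraries held between 35101788 and 45401781 counts, of which 24484 to 42451 fell on Ighv names. Transcripts of Tet2 were present in every library, at 59.4, 64.8 and 50.04 CPM (counts-per-million of the TMM-normalized library size) in knockout 2, 3 and 4 and at 74.7, 83.3 and 56.8 CPM in wild type. Their log2 change of −0.30 (SE 0.14) did not pass the threshold (edgeR adjusted p = 0.408). With a term for the libraries numbered 4 it was −0.29 and passed (edgeR adjusted p = 0.0420), where 1.81% of all genes were called lower. Since the deleted part is not given, Tet2 does not check the labels. The Y-linked transcript Ddx3y stood at 38.0 to 85.9 CPM in the knockout libraries and at 0 to 0.0455 CPM in wild type, while Xist stood at 802 to 887 CPM against 1443 to 1537. The genotype therefore cannot be told apart from the sex makeup of the samples. The libraries numbered 4 stood apart from 2 and 3 in both genotypes. With genotype in the model, 7.83% of 13604 tested genes were higher and 6.95% lower in them (edgeR, adjusted p under 0.05).

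V transcripts made up a somewhat larger part of the RNA in 2 of the 3 knockout libraries. All Ighv names together took 935, 892 and 701 CPM of the plain library total in knockout 2, 3 and 4. In wild type 2, 3 and 4 they took 639, 755 and 698. Knockout 2 and 3 were above every wild-type library, but knockout 4 lay among them, so the groups overlapped. The means were 843 ± 125 and 697 ± 57.7 CPM (SD, n = 3 each), and the exact two-sided permutation test gave p = 0.2. With 3 against 3 libraries the smallest p that this test allows is 0.1, so no value per library tested here could pass 0.05. In bulk RNA, a larger part of cells that use a segment and more transcript per cell cannot be told apart.

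The gap between genotypes was not the same at each library number. It was 296, 137 and 3.22 CPM at numbers 2, 3 and 4, each from 1 library per genotype. Whether the gap depends on the number was not tested. Transcripts of Ighm, the constant gene of IgM to which V is spliced in naive cells, stood at 8580, 8364 and 7167 CPM in knockout and 6385, 7296 and 6752 CPM in wild type. Relative to Ighm, Ighv counts were 11.2, 10.8 and 9.85 per 100 Ighm counts in knockout and 9.68, 10.2 and 10.4 in wild type (exact p = 0.3). This ratio differed by 1.55, 0.588 and −0.503 between the libraries numbered 2, 3 and 4.

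**Figure D1:**
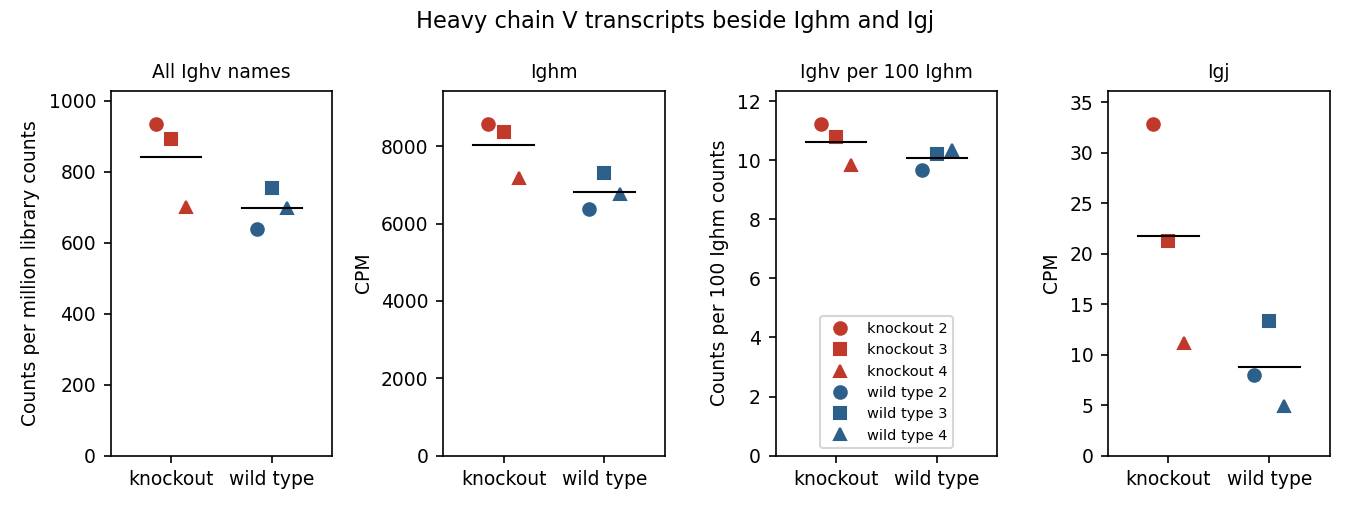
Each point is a library (circles 2, squares 3, triangles 4; red knockout, blue wild type), and black lines are group means. Panels give summed Ighv counts in CPM of the library total, Ighm in CPM, Ighv counts per 100 Ighm counts and Igj in CPM; knockout 4 lies at 701 CPM, among the wild-type libraries at 639 to 755.

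Antibody-secreting cells carry far more heavy chain RNA per cell than naive cells, and some of their transcripts were higher in knockout 2 and 3 while others were not. Igj, the joining chain of secreted IgM and IgA, stood at 32.9, 21.3 and 11.1 CPM in knockout and 7.95, 13.3 and 4.91 CPM in wild type. Igha, the IgA constant gene, reached 7.43 and 24.2 CPM in knockout 2 and 3 and was between 0.202 and 0.750 CPM in the other 4 libraries. Of 11 plasma cell markers in the table, 10 were tested and 0 passed the threshold in either direction (edgeR). Log2 estimates were positive for 6 and negative for Prdm1 (−0.21), Ighg1 (−0.17), Sdc1 (−0.12) and Xbp1 (−0.007). At an unadjusted edgeR p under 0.05 there were 4, where 7.85% of all tested genes were higher and 5.51% lower. The 11 markers summed to 380 to 438 CPM in knockout and 285 to 379 CPM in wild type. Xbp1 and Mzb1, the most abundant of them, are also transcribed in naive B cells. The defining markers Sdc1 (7.83 to 9.96 CPM) and Tnfrsf17 (0 to 0.0481 CPM) did not follow the V total. The part of such cells in the V total was not tested.

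The B cell label was checked on its markers. Ms4a1 stood at 1789 to 2660 CPM and Cd79b at 1988 to 2604 CPM, with 9 B cell markers summing to 18528 to 23038 CPM, whereas 7 T cell markers summed to 0.589 to 1.23 CPM. The sums were 8.77 to 16.6 CPM for 6 myeloid and 7.88 to 21.4 CPM for 6 erythroid markers. For 7 germinal centre markers they were 154 to 192 CPM and for 6 marginal zone markers 1695 to 2338 CPM. Whether the B cells were naive was not tested.

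Use of the segments was broad and uneven. The most used segment, Ighv1-26 of family 1, took 5.67% of all Ighv counts on average over the 6 libraries, and the least used member 0.00745%. The 12 most used segments together took 42.3%, and 16 segments made up 50% of the counts. In all, 33 members had a mean share of at least 1%, and 20 a share under 0.1%. Counts scale with transcript length, but the same 12 segments led when counts were divided by exon length, with Ighv1-26 (5.48%), Ighv3-6 (4.74%), Ighv1-9 (4.34%) and Ighv1-82 (3.86%) at the top of that order.

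Ighv1-26 took 5.50%, 6.19% and 5.49% of Ighv counts in knockout 2, 3 and 4 against 5.82%, 5.42% and 5.58% in wild type. The groups overlapped, and no other segment reached these shares in any library. Ighv3-6, of family 3, took 5.18%, 4.75% and 4.83% in knockout and 4.54%, 4.66% and 4.68% in wild type, so that every knockout library lay above every wild-type library. Ighv1-9 followed at 4.75%, 4.16% and 4.19% against 4.84%, 4.42% and 4.30%, with overlap between genotypes. Its range met that of Ighv3-6, so the order of these neighbours was not the same in each library. The lowest share of Ighv1-9 was above the highest of the segments that follow it.

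Below them, Ighv9-3 (3.39% to 3.85%), Ighv5-17 (3.42% to 4.04%), Ighv8-8 (3.07% to 3.77%) and Ighv1-82 (2.99% to 3.56%) had ranges that overlapped from neighbour to neighbour. So did Ighv5-4 (2.62% to 3.15%), Ighv6-3 (2.14% to 3.15%), Ighv1-18 (2.28% to 2.88%), Ighv1-80 (2.39% to 3.03%) and Ighv1-22 (2.37% to 2.69%).

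**Figure D2:**
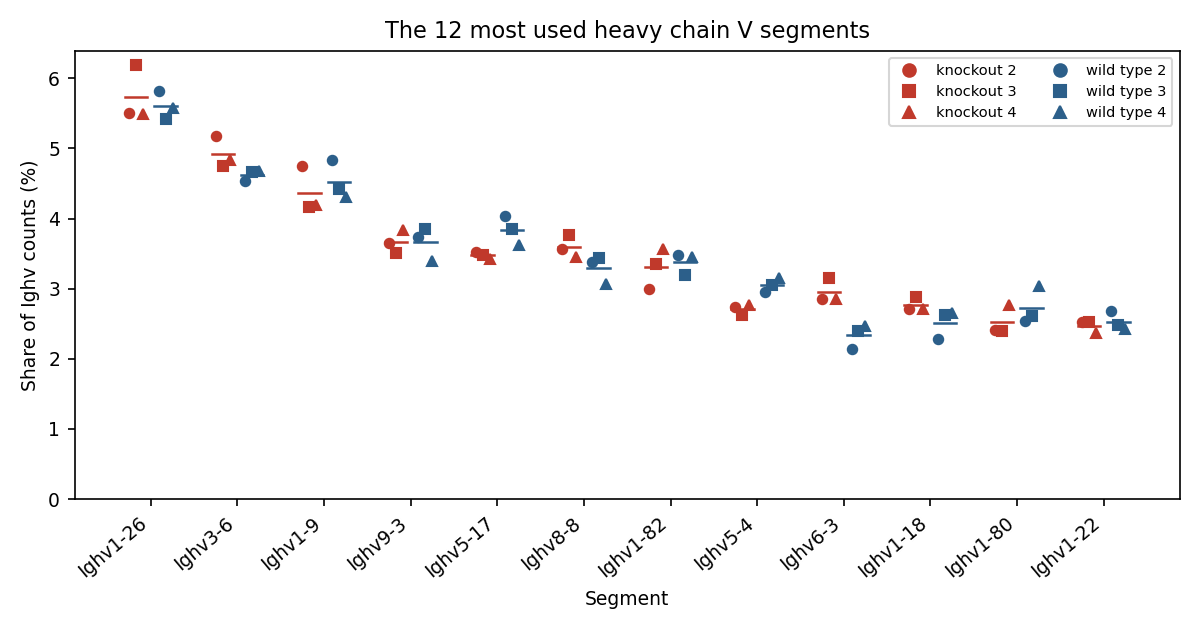
Share of all Ighv counts (%, vertical axis) of the 12 most used segments in each library; symbols mark library numbers, colours genotypes, and short lines group means. Ighv6-3 is higher in all knockout libraries (2.85% to 3.15%) than in wild type (2.14% to 2.47%), and Ighv5-4 lower (2.62% to 2.77% against 2.96% to 3.15%).

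No library was dominated by a few segments. For the 87 members with at least 100 counts, the highest library was 1.04 to 1.73 times the median of the other 5, with a median of 1.16 times. The highest of these ratios belonged to the pseudogene Ighv1-2 in wild type 2 and the lowest to Ighv1-55 in knockout 4. The effective number of segments, the count of equally used segments that would give the same entropy, was 58.2, 58.2 and 58.4 in knockout and 59.2, 59.8 and 59.5 in wild type. All knockout libraries were lower, with a mean difference of −2.07% (exact p = 0.1, adjusted over 3 diversity measures p = 0.3). The inverse Simpson index, which weights common segments more, was 43.6 ± 0.480 and 44.4 ± 0.663 (SD, n = 3 each, exact p = 0.2), with overlap. The 10 most used segments of each library took 37.5% ± 0.359 and 37.4% ± 0.580 (exact p = 0.7).

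Family 1 took about as much as all other families together, 50.2% ± 0.992 of Ighv counts in knockout and 50.3% ± 1.02 in wild type (SD, n = 3 each, exact p = 0.7). Counts fell on 15 families, and the only name of family 16 was at 0. In 7 of the 15 families the shares of the genotypes did not overlap, 4 higher and 3 lower in knockout. Each of these gave the smallest p possible (exact p = 0.1, 0.214 after Benjamini-Hochberg adjustment over 15 families), so none passed 0.05. Shares sum to 100% in a library, so families do not move independently.

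Family 6, which includes the J606 segments, had the largest relative gain among families whose genotypes did not overlap. It took 4.45%, 4.61% and 4.19% of Ighv counts in knockout and 3.31%, 3.68% and 3.79% in wild type, a mean share 22.8% higher. Ighv6-3 took 2.85%, 3.15% and 2.85% in knockout against 2.14%, 2.40% and 2.47% in wild type, and Ighv6-6 took 1.56%, 1.43% and 1.28% in knockout against 1.11%, 1.23% and 1.28% in wild type. The lowest knockout share of Ighv6-6 was barely above the highest wild-type share. Family 10, whose only members Ighv10-1 and Ighv10-3 are 96.7% identical, took 2.77%, 2.96% and 2.69% against 2.46%, 2.61% and 2.299%, which was 14.2% higher. Families 8 (6.03%, 6.24% and 6.05% against 5.82%, 6.02% and 5.56%) and 14 (3.48%, 3.33% and 3.33% against 3.21%, 3.20% and 3.29%) were higher by 5.27% and 4.46%.

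Family 5, the large family next to the D segments, had a lower share in knockout. It took 11.7%, 11.4% and 12.2% in knockout and 13.2%, 13.2% and 12.8% in wild type, a difference of −10.04% relative to the wild-type mean. Scaled to the Ighv total, 1 of its 9 tested members (Ighv5-16) was positive. Family 2, interspersed with it, took 4.51%, 4.43% and 4.32% against 4.91%, 4.75% and 4.84%. Family 4, which is Ighv4-1 alone, took 0.525%, 0.494% and 0.447% against 0.553%, 0.682% and 0.592%. The 3 families lie in the same stretch of the array. Families 3, 7, 9, 11, 12, 13 and 15 overlapped between the genotypes.

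**Figure D3:**
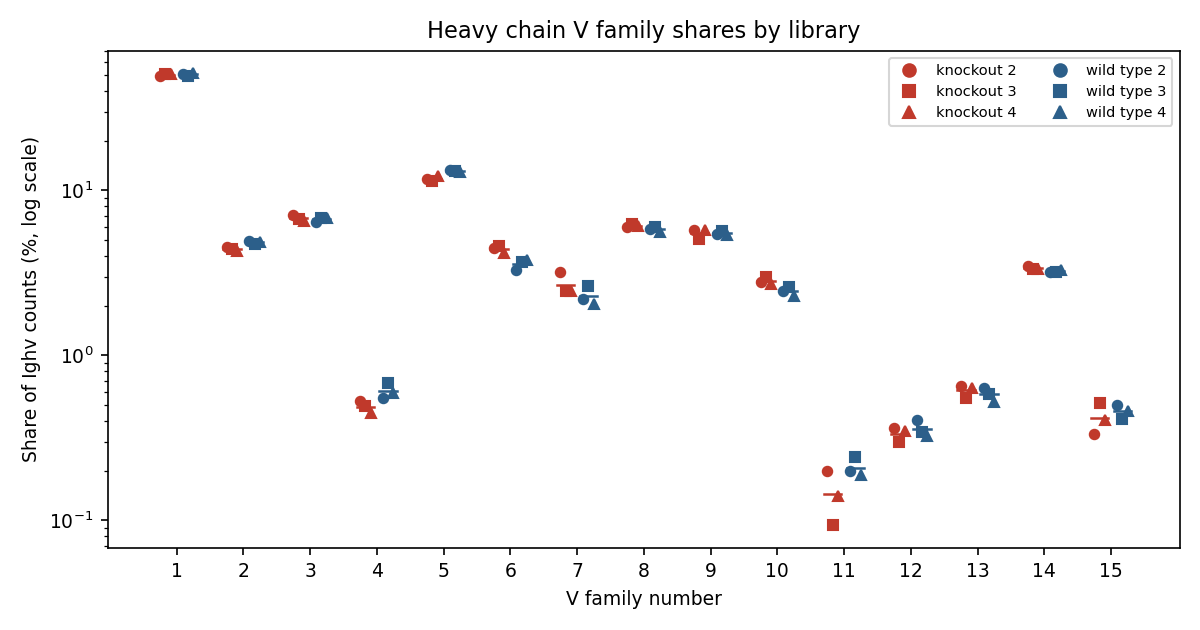
Share of all Ighv counts (%, log scale) of each V family in each library; symbols mark library numbers, colours genotypes, and short lines group means. Family 5 is lower in all knockout libraries (11.4% to 12.2% against 12.8% to 13.2%) and family 6 higher (4.19% to 4.61% against 3.31% to 3.79%).

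Shares were then compared along the array. The 102 members were ordered from Ighv5-2, the member nearest to the D segments (chr12:113578504-113578990), and cut into 4 stretches of 25 or 26 members. The D-proximal stretch, from Ighv5-2 to Ighv14-3 and 482 kb long, took 21.0%, 20.3% and 20.8% of Ighv counts in knockout and 22.8%, 22.8% and 22.6% in wild type. All knockout libraries were lower, with a mean difference of −9.04% of the wild-type share (exact p = 0.1, adjusted over 4 stretches p = 0.2). The next stretch, from Ighv9-1 to Ighv1-9, took 31.1%, 29.5% and 29.4% against 28.1%, 28.9% and 27.5%, with all knockout libraries higher, by 6.57% (exact p = 0.1, adjusted p = 0.2).

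Between libraries of the same number, the D-proximal stretch differed by −1.87, −2.52 and −1.78 percentage points at numbers 2, 3 and 4. The next stretch differed by 3.03, 0.637 and 1.88 points, so its difference varied more between numbers. The distal stretches, made up of families 1 and 8, took 25.8% ± 0.769 and 25.6% ± 0.455 (exact p = 0.8) and 23.5% ± 0.798 and 23.5% ± 0.612 (SD, n = 3 each, exact p = 1) and overlapped between genotypes.

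**Figure D4:**
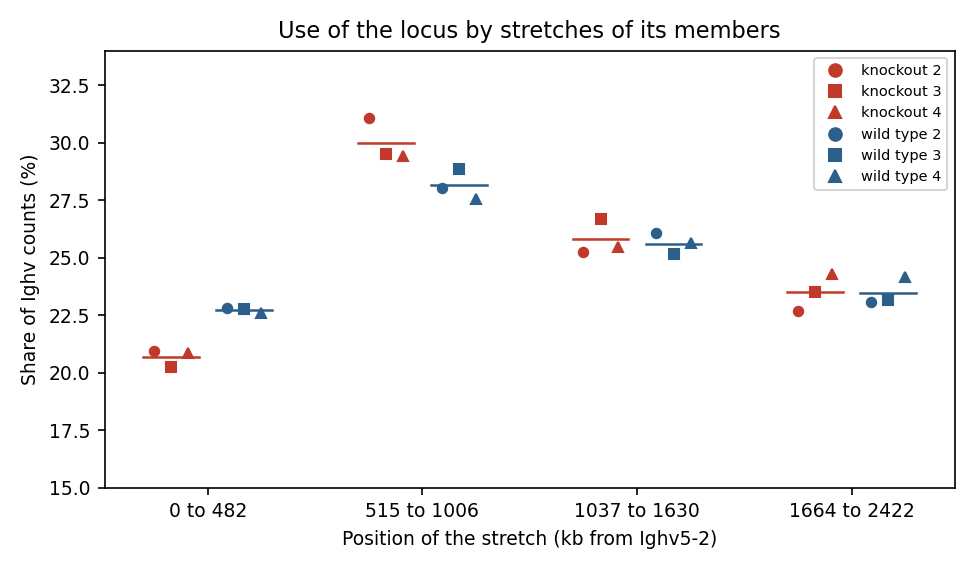
Share of Ighv counts (%, vertical axis starting at 15) in each stretch of the members, ordered by distance from Ighv5-2 (kb); symbols mark library numbers, colours genotypes and short lines group means. The stretch nearest to D is lower in knockout (20.3% to 21.0% against 22.6% to 22.8%), the next higher, and the distal stretches overlap.

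Single segments are given from the same counts, and no test compared the stretches with each other. Of all 13604 genes taken relative to the Ighv total, 0.992% were higher and 20.8% lower without overlap. On that scale the median log2 change of all genes was −0.31 and that of the 95 tested segments −0.04. These percentages are therefore shifted to the lower side and are no even measure for the shares of segments. In the D-proximal stretch, 7 of 24 tested segments had shares lower in every knockout library and 0 had shares higher. The 7 were Ighv5-17, Ighv5-4, Ighv5-6, Ighv2-2, Ighv2-5, Ighv3-1 and Ighv4-1. Ighv5-4 took 2.74%, 2.62% and 2.77% in knockout and 2.96%, 3.05% and 3.15% in wild type, and Ighv5-6 took 1.17%, 1.06% and 1.35% against 1.54%, 1.51% and 1.54%. In the next stretch 5 of 24 were higher (Ighv3-6, Ighv6-3, Ighv6-6, Ighv10-3 and Ighv14-4) and 1 lower (Ighv1-2). The distal stretches held 4 higher and 7 lower among 47 tested segments. Over the whole array, 9 of 95 tested segments were higher and 15 lower without overlap. Segments of this count that the rule for names does not take were chosen after their values were seen.

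**Figure D5:**
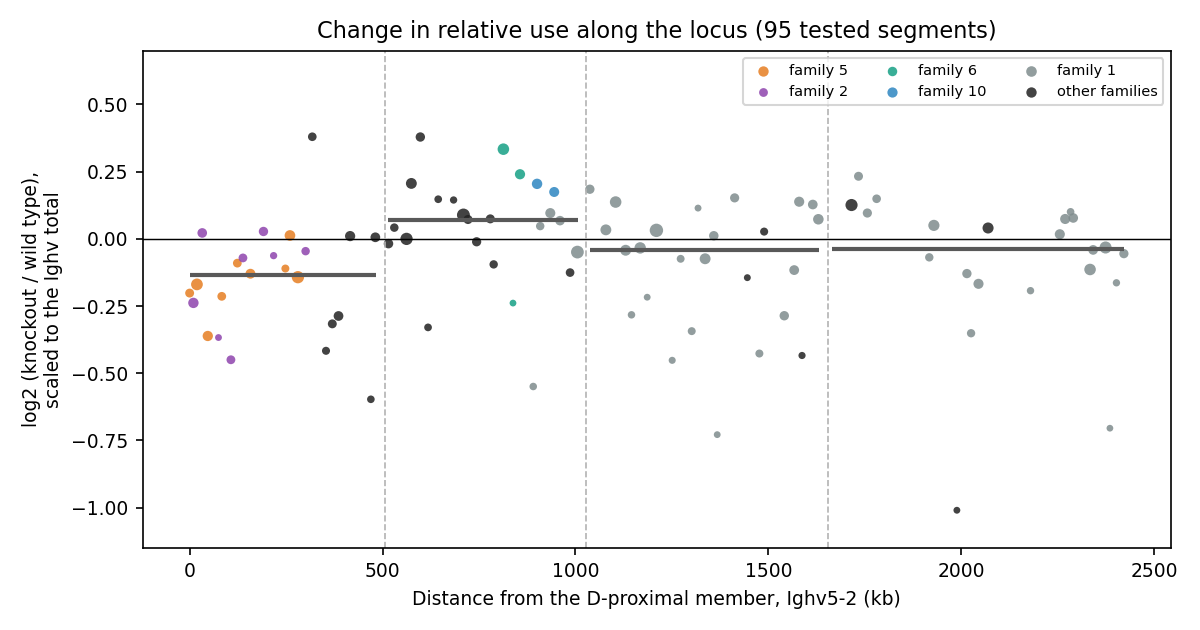
Log2 ratio of knockout to wild type, scaled to the summed Ighv count, against distance from Ighv5-2 (kb) for 95 tested segments; point area grows with mean share, colours mark families, dashed lines part the stretches and grey bars are their medians. The median of the stretch nearest to D is −0.14 and that of the next 0.07.

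Measured against the whole library and not the Ighv total, most segments had higher estimates in knockout and none passed the test. Relative to all RNA, 81 of 95 tested members lay above 0 on the log2 scale (median 0.28), against 48.8% positive and a median of −0.01 over all tested genes. At an adjusted p under 0.05, 0 members were called in either direction (edgeR quasi-likelihood test, where 0.184% of all tested genes were called higher and 0.221% lower). At an unadjusted p under 0.05, 28 members were higher and 0 lower, against 7.85% and 5.51% of all tested genes. DESeq2 called 1 member higher, where it called 1.44% of genes higher, and limma-voom called 0, where it called 0.147%. In CPM, 15 members were higher in every knockout library and 1, Ighv8-11, lower, against 10.2% and 8.28% of all tested genes. Scaled to the Ighv total, 42 of 95 were positive, the median was −0.04 and 0 were called, where 0.228% of all genes were called higher and 1.89% lower (edgeR; 0 higher and 1 lower at an unadjusted p under 0.05, against 0.647% and 21.8% of all genes), so the direction of many members depends on this scaling, which moves the median of all genes to −0.31.

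The smallest adjusted p among members belonged to Ighv6-3. Its level was 27.4, 28.4 and 20.1 CPM in knockout and 13.2, 17.9 and 17.3 CPM in wild type, with every knockout library higher. The log2 change was 0.65 (SE 0.16, edgeR adjusted p = 0.157), and DESeq2 called it (0.65, adjusted p = 0.00923). In shares, the 95% Clopper-Pearson intervals, which cover counting error only, ran from 2.65% to 3.05% in knockout 4 and from 2.28% to 2.67% in wild type 4. The intervals of the libraries numbered 4 therefore touched, whereas knockout 2 (2.69% to 3.01%) lay above wild type 2 (1.97% to 2.32%). Likewise, knockout 3 (2.97% to 3.33%) lay above wild type 3 (2.24% to 2.57%).

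The other members with the smallest p on the higher side were Ighv1-53 (log2 0.45), Ighv1-58 (0.56), Ighv14-4 (0.70), Ighv8-8 (0.45) and Ighv1-55 (0.40), at edgeR adjusted p of 0.219 to 0.255. On the lower side they were Ighv8-11 (−0.71), Ighv1-83 (−0.39), Ighv1-2 (−0.21), Ighv1-43 (−0.38), Ighv11-2 (−0.25) and Ighv2-5 (−0.13), at edgeR adjusted p of 0.420 to 0.802. These lower members were rare, with 951 counts over the 6 libraries for Ighv2-5 and 60 to 283 for the rest.

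The excess in V transcripts was larger between the libraries numbered 2 and 3 than between those numbered 4, which are 1 library per genotype. Between the libraries numbered 2 and 3, 88 of 95 members were higher in knockout in mean log2 CPM, with a median difference of 0.40. Between the libraries numbered 4, 46 of 95 were higher and the median was −0.02. When those 4 libraries were fitted alone, 40 members were called higher and 0 lower (edgeR, adjusted p under 0.05), against 13.6% and 10.4% of all genes tested in that fit. With a term for the libraries numbered 4 in the model, 4 members rose and 0 fell, where 2.59% of all genes rose and 1.81% fell: Ighv8-8 (log2 0.44, edgeR adjusted p = 0.0393), Ighv10-1 (0.52, 0.0422), Ighv1-58 (0.56, 0.0423) and Ighv14-4 (0.69, 0.0465). With edgeR's relative log expression scaling in place of TMM under that model, 3 were called and Ighv14-4 was not. None of the 95 was called under that model once scaled to the Ighv total (edgeR; 0 higher and 2 lower at an unadjusted p under 0.05).

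The Ighv total of knockout 4 was below those of knockout 2 and 3, while that of wild type 4 lay between wild type 2 and 3. In that model 83 of 95 members had lower estimates in the libraries numbered 4, with a median log2 difference of −0.19, and 1 was called, Ighv7-4. Ighv7-4, of family 7, took 0.196% and 0.192% of Ighv counts in knockout 2 and 3 and 0.132% in knockout 4, and 0.161% and 0.220% in wild type 2 and 3 and 0.0858% in wild type 4. Its log2 difference was −1.03 (edgeR adjusted p = 0.0301), in a comparison where 6.95% of all genes were lower. The next were Ighv8-8 (−0.30), Ighv1-37 (−1.31) and Ighv5-15 (−0.61), none past the threshold.

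Of segments tied by textbooks to known specificities or to early B cells, Ighv11-2, Ighv12-3, Ighv7-1, Ighv5-2 and Ighv1-72 were not called with all 6 libraries (edgeR or DESeq2). Ighv11-2 and Ighv12-3 encode antibodies to phosphatidylcholine made by B-1a cells, a self-renewing innate-like subset. Ighv11-2 took 0.177%, 0.0801% and 0.0931% in knockout and 0.176%, 0.196% and 0.163% in wild type, so that knockout 3 and 4 were low and knockout 2 was not. Its log2 change was −0.25 (edgeR adjusted p = 0.799), and since Ighv11-1 is 98.9% identical its count is uncertain. Ighv12-3 took 0.360%, 0.299% and 0.347% against 0.407%, 0.345% and 0.323%, with overlap (log2 0.23, edgeR adjusted p = 0.625).

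Of the 8 B-1 cell markers, 6 were tested and 0 passed (edgeR). At an unadjusted edgeR p under 0.05 there were 3, all higher, where 7.85% of all tested genes were higher and 5.51% lower. The summed level of the 8 markers was 52.4 to 75.2 CPM in knockout and 41.7 to 50.6 CPM in wild type. With the term for the libraries numbered 4, Spn, Plscr1 and Cd300lf were called higher (edgeR), where 2.59% of all genes were. DESeq2 called Plscr1 and Cd300lf higher, where it called 1.44% of genes higher. Estimates of Cd5 (log2 −0.04) and Bhlhe41 (−0.12) were negative. The untested Ctla4 was lower in every knockout library, at 3 to 7 counts against 9 to 12. Cd5, which defines B-1a cells, was at 1.36 to 2.20 CPM in all libraries. Spn, the most abundant of the list, stood at 39.5, 38.9 and 23.0 CPM in knockout and 26.8, 25.7 and 20.6 CPM in wild type. The part of B-1 cells in the use of these segments was not tested.

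Ighv7-1, the segment of antibodies to phosphorylcholine, took 0.596%, 0.451% and 0.426% in knockout and 0.385%, 0.440% and 0.306% in wild type. Knockout 2 stood above the rest, and the log2 change was 0.72 (edgeR adjusted p = 0.309). With the libraries numbered 2 and 3 alone it was called (0.80, edgeR adjusted p = 0.0147), where 40 of 95 members and 13.6% of all genes were called higher. Ighv5-2, known as 81X and favoured in fetal and early B cells, took 0.436%, 0.531% and 0.544% against 0.553%, 0.657% and 0.523% (log2 0.10, edgeR adjusted p = 0.849). Ighv1-72 took 0.104%, 0.0908% and 0.107% against 0.106%, 0.134% and 0.102% (log2 0.12, edgeR adjusted p = 0.881). In each of these the genotypes overlapped.

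Pseudogenes, V segments without an intact reading frame, made up little of the V transcripts. All Ighv names called pseudogenes together took 0.167%, 0.152% and 0.136% of Ighv counts in knockout and 0.264%, 0.238% and 0.184% in wild type. These shares were lower in every knockout library (exact p = 0.1). They include the few counts of Ighv1-73 and Ighv1-30, which were below the threshold for members. The 3 pseudogene members Ighv1-2, Ighv1-83 and Ighv1-14 had 43 to 249 counts over all libraries.

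Of the 102 members, 95 passed the filter on low counts, and the 7 that did not were Ighv11-1, Ighv1-56, Ighv1-14, Ighv1-62-3, Ighv6-4, Ighv2-7 and Ighv8-9. Just inside the count threshold lay Ighv8-9 with 14 counts over the 6 libraries and Ighv2-7 with 26. Just outside lay Ighv1-73 with 8 and Ighv8-13 with 5. A further 3 names had 1 to 3 counts and 7 had 0. In a single library, 3 counts were a share of 0.00707% to 0.0123% of Ighv counts.

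Few genes were called in the lists of the machinery around the V segments, and few in the whole table. Of all tested genes, edgeR called 0.184% higher and 0.221% lower, and 7.85% and 5.51% had an unadjusted p under 0.05. DESeq2 called 1.44% higher and 1.06% lower. Rag1 and Rag2, the recombinase, and Dntt, which adds bases at the joints, stood at 0.0963 CPM or less in every library, and Rag2 was at 0. Of 14 recombination genes, 11 were tested and 0 were called (edgeR; 0 at an unadjusted p under 0.05; DESeq2 0). Their smallest p belonged to Hmgb1, a DNA-bending cofactor of the recombinase (log2 −0.36), and Prkdc, the DNA-dependent protein kinase (−0.13). Of 18 factors of the locus and of V promoters, 18 were tested and 0 were called (edgeR; 1 at an unadjusted p under 0.05; DESeq2 0). That one was Pou2af1, the coactivator of octamer factors at V promoters, at 919, 877 and 966 CPM in knockout and 683, 785 and 803 CPM in wild type. Its log2 change was 0.28 (SE 0.09, edgeR adjusted p = 0.249). With the term for the libraries numbered 4 it was called higher (edgeR adjusted p = 0.0453), where 2.59% of all genes were. The nearest other factor by p was Irf4 (−0.22).

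Among 11 heavy chain constant and joining genes, 10 were tested, 9 had positive estimates and 0 were called (edgeR). At an unadjusted edgeR p under 0.05 there were 3, where 7.85% of all tested genes were higher and 5.51% lower. DESeq2 called Ighg3 higher, where it called 1.44% of genes higher. Ighg3, the constant gene of IgG3, was at 8.42, 6.96 and 6.17 CPM in knockout and 4.46, 3.41 and 3.45 CPM in wild type (log2 0.93, edgeR adjusted p = 0.0928). With the term for the libraries numbered 4, Ighg3 and Ighg2b rose, where 2.59% of all genes did. Ighg2b was at 18.1, 20.6 and 11.5 CPM against 5.32, 9.80 and 2.97 CPM, and Ighg2c reached 36.9 CPM in knockout 2 and 0.0857 to 4.82 CPM in the other libraries. Of 4 receptor partners in the table, the signalling chains Cd79a and Cd79b and the light chain constant genes Igkc and Iglc2, 0 were called (edgeR; 0 at an unadjusted p under 0.05). Igkc differed by 0.26 and Cd79b by 0.22 on the log2 scale, beside 0.24 for Ighm.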

How the data were processed

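RNA-seq libraries of splenic naive B cells, 3 per genotype, came from a kit for stranded mRNA (the labels' protocols). The starting point was the count table deposited by the authors, in whole fragments per gene name. Per the file headers, featureCounts 1.5.1 made it from GENCODE vM3 exons with no strand option. Alignment used STAR 2.3.0e and the build GRCm38.p3, per the submitters' processing notes. How reads that match several near-identical segments were placed is not given in the sources used here. The table held 6 further count columns that were not used.

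A share is a segment's count as a percentage of all Ighv counts of its library. Counts of all genes kept by filterByExpr (minimum count 10) were tested with edgeR 4.0.16 (TMM, quasi-likelihood F test, no covariate, R 4.3.3), Benjamini-Hochberg adjustment over 13604 genes and a threshold of 0.05, with DESeq2 1.42.0 and limma-voom 3.58.1 as alternatives. The fit was tested on simulated data. Shares were compared by exact two-sided permutation tests. The deposited exon length, unit bases, served for values per length.

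The members, lists and tests were chosen with earlier results of these data known. Segments were named by a rule: the 12 most used, the 6 higher and 6 lower with the smallest p, any called, the 4 with the smallest p for the libraries numbered 4, textbook segments and those at the count threshold; of each gene list those called, or 2 with the smallest p, and of marker lists the 2 most abundant. Alternatives were other scalings, filters and tools, a replicate block, leaving out libraries, and counts per length; after the data were seen, the ratio to Ighm, a term for the libraries numbered 4 among the alternatives, and segments with mostly unique sequence were added.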

Additional observations from a re-analysis of the deposited data

How the results depend on the processing

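The count of members called higher, 0 of 95, became 1 without the filter on low counts, 1 by DESeq2 (Ighv6-3 in both), 40 with the libraries numbered 2 and 3 alone and 4 with a term for the libraries numbered 4. Without that filter 262 of 23019 genes were called. Leaving out each library in turn gave 0 to 2 members. Ighv6-3 and Ighv1-26 were called without knockout 4, where 146 of 13906 genes were called. Ighv1-53 was called without wild type 4, where 900 of 13901 genes were called. The number of positive members fell from 81 to 42 when scaled to the Ighv total, and with the term for the libraries numbered 4 that scaling left 0 genotype calls in place of 4 and 0 in place of 1 for those libraries. Among listed genes, 0 were called higher and DESeq2 gave 1. The libraries numbered 2 and 3 alone gave 12 higher and 3 lower in place of 0, against 13.6% and 10.4% of all genes. Leaving out libraries gave 0 to 2 higher and 0 to 1 lower, in fits that called 17 to 900 genes. The cause of these changes was not tested.

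Deviations of same-numbered libraries from their group means correlated at 0.0857, 0.220 and 0.394 over all genes, so the numbers were not taken to pair the samples, and knockout 2 correlated better with wild type 3 (0.239). With the replicate number as a block, 0 members and 2 listed genes were called higher, where 85 of 13604 genes were called in either direction.

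The lower share of the D-proximal stretch of the array and the higher share of the next kept their direction under all alternatives run. Differences that changed sign were small. In percentage points, with members of mostly unique sequence alone, the share of the 10 most used segments differed by −0.0619 and stretch 4 by −0.102, and with the libraries numbered 2 and 3 alone stretch 4 by −0.0144. Leaving out each library in turn gave −0.0717 to 0.468 for the 10 most used segments, −0.254 to 0.455 for stretch 3 and −0.366 to 0.431 for stretch 4. Leaving out libraries gave −0.743 to 0.397 for family 1, −0.0831 to 0.164 for family 3, −0.0815 to 0.256 for family 9, −0.0406 to 0.00149 for family 12 and −0.0863 to 0.00409 for family 15. With the libraries numbered 2 and 3 alone, family 1 differed by 0.0160, family 9 by −0.159 and family 13 by −0.0104.

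Among named members, scaling to the Ighv total turned the log2 changes of Ighv1-9 (−0.0493), Ighv9-3 (−0.000202), Ighv5-17 (−0.14), Ighv1-82 (−0.0322), Ighv5-4 (−0.17), Ighv1-80 (−0.11), Ighv1-22 (−0.0338), Ighv5-2 (−0.20), Ighv12-3 (−0.10), Ighv5-15 (−0.11) and Ighv1-72 (−0.19). The libraries numbered 2 and 3 alone turned Ighv2-5 (0.0591) and Ighv1-43 (0.35). Leaving out single libraries gave −0.00124 to 0.27 for Ighv5-2, −0.00970 to 0.32 for Ighv1-72, −0.12 to 0.85 for Ighv1-37, −0.29 to 0.0145 for Ighv2-5, −1.12 to 0.00833 for Ighv1-43 and −0.75 to 0.0418 for Ighv1-83. Counts under 100 over the 6 libraries limit the precision of the rarest members.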
